A study of Rattus norvegicus with 30 samples.

Results

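The report concerns 10 genes that make, break down or bind hyaluronan, chosen by gene name from the 30562 rows of one expression table: the synthases Has1, Has2 and Has3, the breakdown genes Hyal1, Hyal2, Hyal3, Cemip and Cemip2, and the receptors Cd44 and Stab1. All 10 were found, each in 1 row, and all 10 were among the 16171 genes with enough counts to test. The choice used the table itself, because the drop of Hyal3 after surgery was known when the genes were picked. Their values in Glenn against sham are therefore a description and carry no p-value. Where one of them is said to be past the threshold of the fit in that contrast, this describes the choice and supports nothing.

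RNA was sequenced from lung cells of wild-type rats, enriched with magnetic beads for CD31, a surface protein of endothelial cells, 3 weeks after surgery. Rats had either a sham operation or a Glenn operation, which joins a caval vein to the pulmonary artery so that blood from the liver no longer reaches that lung directly. Each operation was combined with 1 of 3 diets, called control, deficient and excess by their content of vitamin A, which gives 6 groups of 5 libraries and 30 libraries in all. All groups share the wild-type genotype, the bead sort and the single time point. Strain, age and sex are not given in the labels, nor do they say whether each library is 1 animal, so p-values measure the spread between libraries.

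Hyaluronan is a long unbranched sugar polymer of the extracellular matrix and of the glycocalyx that coats the vessel wall. It is spun out through the plasma membrane by the 3 Has enzymes, cut into fragments at the cell surface and in lysosomes, and bound by receptors that signal from it or take it up. In the lung it holds water in the matrix, and in endothelium its chain length is known to influence barrier tightness and vessel growth.

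The 3 Hyal genes lie close together on chromosome 8 in RefSeq's rat assembly GRCr8, in the order Hyal2, Hyal1, Naa80, Hyal3 and on the same strand. They are the members with the most uniform drop after Glenn surgery, so the 250 bases before the start of each are shown here (RefSeq, GRCr8, plus strand, 5′ to 3′). Capitals mark the letters CACCC or their reverse complement GGGTG, a motif read by Krüppel-like factors, which are prominent in endothelium. Hyal2 is at chr8:117121552-117121801, Hyal1 at chr8:117129061-117129310 and Hyal3 at chr8:117132778-117133027.
Hyal2: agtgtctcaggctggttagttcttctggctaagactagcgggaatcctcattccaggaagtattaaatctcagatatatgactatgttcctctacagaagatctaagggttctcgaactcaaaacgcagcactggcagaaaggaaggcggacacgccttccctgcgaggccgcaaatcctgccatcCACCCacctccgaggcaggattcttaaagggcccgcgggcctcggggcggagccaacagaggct
Hyal1: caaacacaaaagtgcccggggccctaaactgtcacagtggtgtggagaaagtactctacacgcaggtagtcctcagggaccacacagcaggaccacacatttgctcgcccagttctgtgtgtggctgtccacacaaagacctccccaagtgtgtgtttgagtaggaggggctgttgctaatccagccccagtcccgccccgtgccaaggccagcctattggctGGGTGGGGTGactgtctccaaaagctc
Hyal3: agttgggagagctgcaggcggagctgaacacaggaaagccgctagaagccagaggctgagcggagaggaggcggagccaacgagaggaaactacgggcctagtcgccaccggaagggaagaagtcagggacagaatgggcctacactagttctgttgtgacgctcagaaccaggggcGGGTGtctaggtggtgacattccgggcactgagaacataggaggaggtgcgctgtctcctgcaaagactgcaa
RefSeq windows of 300 bases (250 before to 50 after the start) were on hand for 7 of the 10 genes, and 3 motifs were searched in them on both strands. CACCC was in all 7, and 54.9% of 33469 such windows hold it. It occurred 3 times in the Stab1 window, 2 times each in those of Hyal1, Has1 and Cd44, and once each in those of Hyal2, Hyal3 and Cemip, so it was not limited to the genes that fell. GGCGCC, a GC-rich motif of SMAD proteins, was in 11% of all windows, and of the 7 only the Cemip window had it. GTCTAGAC, a palindromic SMAD motif, was in 0.197% of all windows and in none of the 7. The windows of Hyal3 and of Naa80, a neighbouring gene that overlaps it, start 71 bases apart and share 229 bases. These matches describe letters only.

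Over the 3 diets, 8 of the 10 genes passed the threshold in Glenn against sham (edgeR quasi-likelihood test with Benjamini-Hochberg adjustment over all genes, adjusted p under 0.05), 4 higher and 4 lower. Of all genes tested, 48.2% passed it (23.4% higher, 24.7% lower) and the genes were picked with this contrast known, so nothing is read from the count. The median log2 change was 0.22 over the 10 genes and -0.01 over all genes. In 5 of the 10, all 15 Glenn libraries lay on one side of all 15 sham libraries (2 higher, 3 lower), against 5.83% of all genes (3.1% higher, 2.73% lower). Hyal1, Hyal2, Hyal3 and Cd44 fell, and Has3, Cemip, Cemip2 and Stab1 rose. Has1 and Has2 did not pass the threshold. The libraries come in 2 series, A (22 libraries) and B (8), told apart by the number range of the library names, and the fit holds the series as a term. With series A alone the changes were of like size: -0.95 for Hyal1, -1.31 for Hyal2, -1.65 for Hyal3, -0.51 for Cd44, 3.47 for Has3, 2.62 for Cemip, 0.33 for Cemip2 and 1.54 for Stab1.

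**Figure D1:**
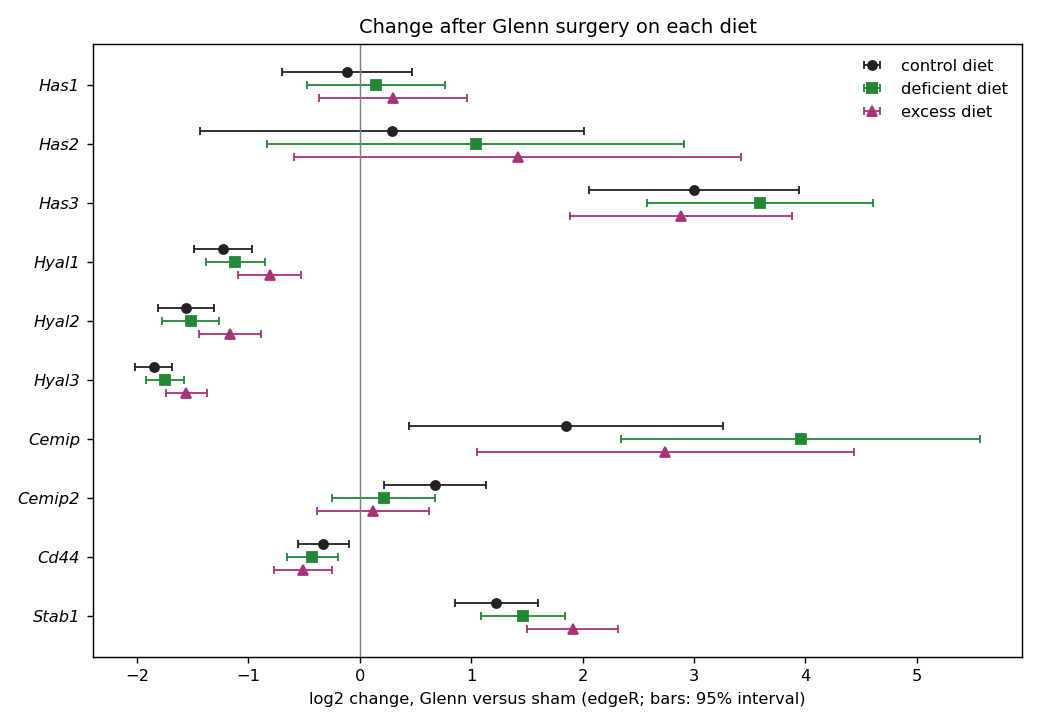
Log2 change in Glenn against sham libraries for the 10 genes (rows) on each diet (symbols), with the 95% interval of the edgeR fit as bars, 5 against 5 libraries per diet. Hyal1, Hyal2 and Hyal3 lie below 0 and Has3, Cemip and Stab1 above 0 on all 3 diets, while the intervals of Has1 and Has2 include 0.

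By diet, 8 of the 10 genes passed the threshold in the control-diet comparison (4 up, 4 down), against 24.9% of all genes (11.8% up, 13.1% down). On the deficient diet 7 did (3 up, 4 down), against 27.4% (13.7% up, 13.7% down), and with excess vitamin A 7 did (3 up, 4 down), against 21.9% (11.6% up, 10.4% down). The 3 comparisons share no library. Glenn and sham libraries did not overlap for 6 of the 10 genes under the control diet (3 up, 3 down), where 17.2% of all genes separated (7.78% up, 9.41% down). They separated for 7 genes under the deficient diet (3 up, 4 down), against 19.6% (10% up, 9.59% down), and for 5 under excess (2 up, 3 down), against 16.3% (8.59% up, 7.75% down). The gene that separated only on the deficient diet was Cd44, and Cemip separated on the control and deficient diets; whether these differ between diets is the interaction test given further on.

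Among the breakdown genes, Hyal3 (ENSRNOG00000070382) had the largest drop. It belongs to the hyaluronidase family, though its own enzyme activity is unsettled. CPM here means counts per mega (M) of scaled library total. In the 5 sham control libraries it stood at 258, 255, 263, 262 and 268 CPM, on the deficient diet at 270.3, 283, 256, 336 and 279.9 CPM, and on the excess diet at 318, 259, 286, 327 and 266 CPM. After Glenn surgery it stood at 70.9, 83.1, 69.2, 69.9 and 69.1 CPM on the control diet, 86.1, 84.3, 88.0, 78.5 and 92.5 CPM on the deficient diet and 102, 110.4, 81.4, 92.6 and 98.1 CPM on the excess diet. The highest Glenn library was thus well below the lowest sham library. Sham libraries averaged 279 ± 26.7 CPM and Glenn libraries 85.1 ± 12.6 CPM (n = 15 per operation, SD), and the log2 change was -1.85 (SE 0.08), -1.74 (SE 0.08) and -1.56 (SE 0.09) on the control, deficient and excess diets. In order of level the group means were sham excess (291 CPM), sham deficient (285 CPM), sham control (261 CPM), Glenn excess (96.9 CPM), Glenn deficient (85.9 CPM) and Glenn control (72.5 CPM). Within either operation, neighbours in this order overlap in their libraries.

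Hyal2 (ENSRNOG00000031420), the hyaluronidase anchored at the cell surface that makes the first cuts in long chains, followed the same pattern. Sham control libraries held 324, 315, 323, 309.8 and 304 CPM, sham deficient libraries 268, 354, 276, 417 and 291 CPM, and sham excess libraries 407, 315, 373, 352 and 316 CPM. Glenn control libraries held 101, 123, 122, 84.6 and 103 CPM, Glenn deficient libraries 124, 116, 114, 96.6 and 125 CPM, and Glenn excess libraries 182, 172, 113, 149 and 127 CPM. No Glenn library reached the lowest sham library. The sham mean was 329.6 ± 43.4 CPM and the Glenn mean 123 ± 26.5 CPM (n = 15 per operation, SD), and the log2 change averaged over diets was -1.41 (SE 0.07). By diet it was -1.56 (control), -1.52 (deficient) and -1.16 (excess), with SEs of 0.12 to 0.13. Group means ran in the order sham excess (353 CPM), sham deficient (321 CPM), sham control (315 CPM), Glenn excess (149 CPM), Glenn deficient (115 CPM) and Glenn control (107 CPM), the same order as for Hyal3.

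Hyal1 (ENSRNOG00000015858), the lysosomal hyaluronidase that degrades fragments taken into the cell, fell least of the 3 on each diet. It ranged from 54.2 to 83.5 CPM in sham libraries (median 74.4) and from 24.7 to 52.3 CPM in Glenn libraries (median 34.2). The highest Glenn library, replicate 1 on the excess diet, lay just under the lowest sham library, replicate 3 on the deficient diet. Sham libraries averaged 72.5 ± 7.49 CPM and Glenn libraries 34.3 ± 7.30 CPM (n = 15 per operation, SD). The log2 change was -1.05 (SE 0.07), or -1.23, -1.12 and -0.81 on the control, deficient and excess diets. The 3 sham means (72.9, 70.4 and 74.2 CPM on the control, deficient and excess diets) differed by less than their SDs of 5.63 to 10.6. The 3 Glenn means were 31.1, 34.2 and 37.7 CPM, with SDs of 5.97 to 9.29, and their libraries overlapped.

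**Figure D2:**
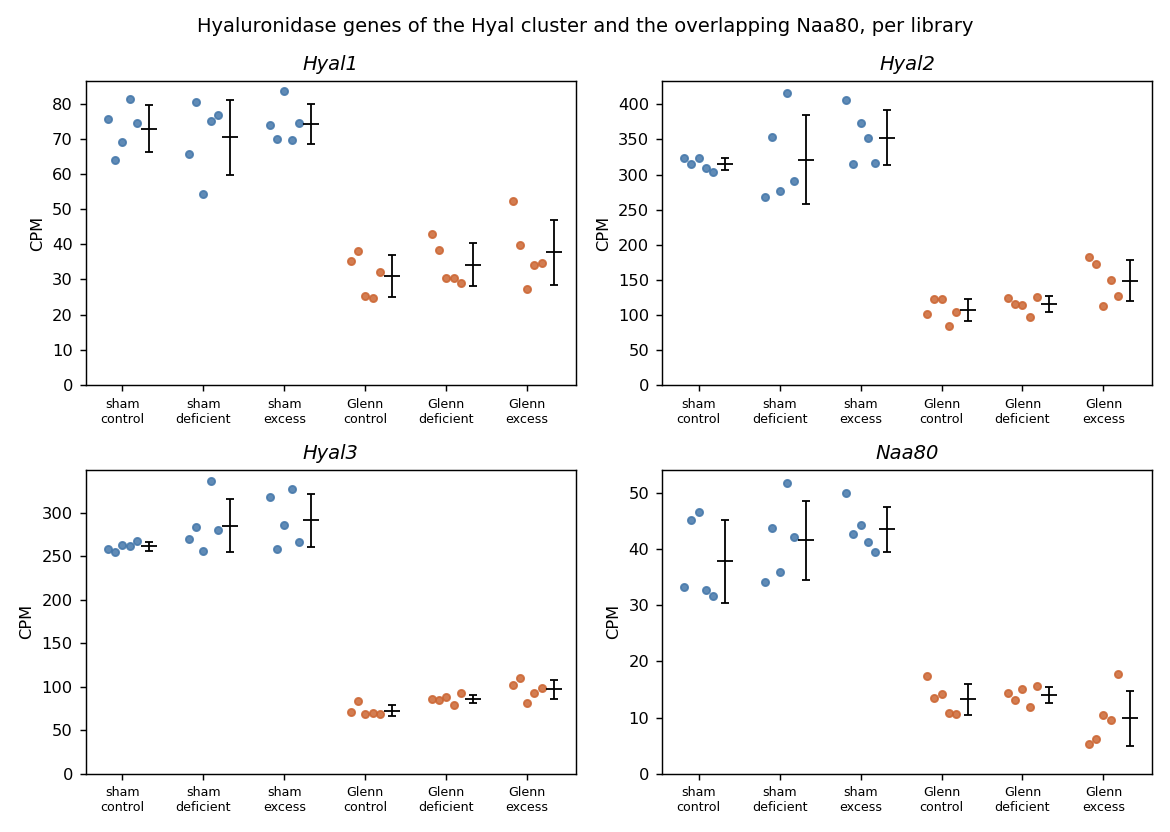
CPM of Hyal1, Hyal2, Hyal3 and the overlapping Naa80 in each of the 30 libraries (points, in order of replicate number), with group mean and SD (bars, n = 5), by surgery and diet. In all 4 genes every Glenn library (orange) lies below every sham library (blue). Among the Glenn groups the excess mean is the highest for Hyal1, Hyal2 and Hyal3. For Naa80 it is the lowest, though the single highest Glenn library of Naa80 is also on the excess diet.

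Hyal1, Naa80 and Hyal3 overlap one another in RefSeq and lie on the same strand. If the annotation used for counting has the same overlap, reads from shared stretches fit more than 1 gene and were divided by the authors' estimate. Its release is not given and the overlap in it was not checked, so the split between these 3 genes is uncertain. Hyal2 overlaps no other protein-coding gene in RefSeq. Naa80 (ENSRNOG00000054063), the enzyme that acetylates the N terminus of actin, stood at 31.6 to 51.8 CPM in sham libraries and 5.32 to 17.8 CPM in Glenn libraries, with no overlap. Its log2 change was -1.81 (SE 0.12). The 3 overlapping genes summed to 372 ± 6.09, 397 ± 44 and 409 ± 32.3 CPM in the sham groups of the control, deficient and excess diets, and to 117 ± 12.1, 134 ± 8.23 and 144 ± 16.7 CPM in the matching Glenn groups (n = 5 per group, SD). Every Glenn group mean of the sum was below every sham group mean. This sum was added after the values had been seen.

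The 12 other genes from Cacna2d2 to Gnai2 in this stretch were described too, from a list set with the members. That list was chosen with earlier results of these data known, so adjusted p-values of its genes describe and support nothing. Among them 3 were higher, 7 lower and 2 not past the threshold, with a median log2 change of -0.18. Of all genes 23.4% were higher and 24.7% lower, with a median of -0.01. Apart from Naa80, the largest changes were in Sema3b, a secreted semaphorin, which rose by 1.23 (SE 0.17, edgeR adjusted p 1.44e-06), and in Cacna2d2, a calcium channel subunit, at -0.53 (SE 0.12, edgeR adjusted p 0.000503). Lsmem2 (-0.49), Tmem115 (-0.29), Rassf1 (-0.24), Nprl2 (-0.20) and Tusc2 (-0.16) were lower on the log2 scale, and Zmynd10 (0.42) and Gnai2 (0.13) higher. Cyb561d2 (-0.14) and Ifrd2 (-0.05) did not pass the threshold. Tusc2, which directly precedes Hyal2, and Ifrd2, which directly follows Hyal3, thus had far smaller values than the 4 genes between them. With series A libraries alone, Rassf1 (-0.09), Zmynd10 (0.26) and Nprl2 (-0.14) were not past the threshold, Cyb561d2 (-0.33) was, and Ifrd2 stood at 0.04. Gnai2 was not past it in 9 of the 30 fits that left out 1 library each (0.10 to 0.14 over all 30).

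**Figure D3:**
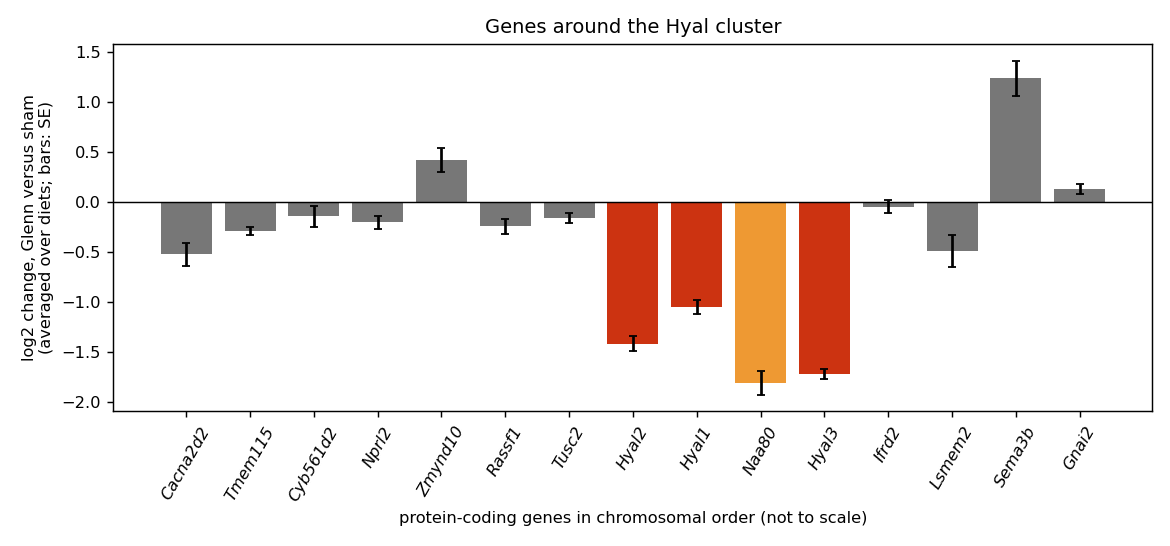
Log2 change in Glenn against sham, averaged over diets (bars, with SE), of the protein-coding genes from Cacna2d2 to Gnai2 in their chromosomal order (horizontal axis, not to scale). Hyal2, Hyal1 and Hyal3 (red) and Naa80 (orange) lie between -1.05 and -1.81, while the genes on either side (grey) lie between -0.53 and 1.23.

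With the mean of each group taken off, levels of the 3 Hyal genes still varied together from library to library. Pearson's r over the 30 libraries was 0.76 for Hyal2 with Hyal3, 0.57 for Hyal1 with Hyal2 and 0.46 for Hyal1 with Hyal3. These points share library and depth and are given as a description. By the same measure Hyal2 was the gene most like Hyal3 of all those with a mean of at least 1 CPM, followed by Sgsm3 (0.74) and Slc35e4 (0.72). The genes most like Hyal2 were Zbtb16 (0.80), Bcl2l1 (0.79) and Sox13 (0.78), and Nod1 (0.80) and Timm50 (0.78) were among those most like Hyal1. With group means off, r of Naa80 was 0.05 with Hyal3 and -0.04 with Hyal2 over all libraries. Over the sham libraries alone it was 0.56 and 0.71, but there the diet means were not taken off, so the measures differ. With group means kept over all 30 libraries, which adds the surgery effect, Hyal3 was most like Smad6, Wnt5b and Hyal2, each at 0.98.

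Cemip (ENSRNOG00000012442), which encodes a hyaluronan-binding protein needed for depolymerisation in fibroblasts, moved against the Hyal genes but at a very low level. Sham libraries held 25, 29, 4, 47 and 5 counts on the control diet, 6, 13, 0, 3 and 10 on the deficient diet and 12, 28, 0, 14 and 0 on the excess diet. Glenn libraries held 124, 155, 52, 51 and 71 counts on the control diet, 201, 157, 102, 90 and 37 on the deficient diet and 69, 49, 20, 79 and 108 on the excess diet. The lowest Glenn library, replicate 3 on the excess diet, fell among the sham libraries, so the 2 operations overlapped. Sham libraries averaged 0.323 ± 0.332 CPM and Glenn libraries 2.12 ± 1.12 CPM (n = 15 per operation, SD), and the log2 change was 2.85 (SE 0.43). It was 1.85 (SE 0.69), 3.96 (SE 0.79) and 2.74 (SE 0.82) on the control, deficient and excess diets. With the group means off, Cemip followed the fibroblast marker score at r = 0.48 (n = 30), and fibroblast markers were higher after Glenn surgery, as given further on; their part in the rise of Cemip was not tested. The control-diet value lay close to the threshold and was no longer past it in 21 of the 30 fits that left out 1 library each, with values of 1.56 to 2.38 over all 30. The control-diet value was also not past it with series A alone (1.86), a term for the gene RT1-CE16 in place of the series (1.73), sex as a further term (1.86) or no filter on low counts (1.85). The excess-diet value was not past it with series A alone (2.18) or with only the groups compared (2.18).

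Cemip2 (ENSRNOG00000012782), also known as Tmem2, a transmembrane protein with reported hyaluronidase activity at the cell surface, rose a little. It ranged from 44.4 to 143 CPM after sham (median 93.3) and from 78.8 to 158 CPM after Glenn surgery (median 109), with wide overlap. The log2 change was 0.34 (SE 0.13) over all diets and 0.68 (SE 0.22) on the control diet, where sham libraries held 82.9, 125, 44.4, 55.1 and 72.9 CPM and Glenn libraries 158, 112, 115, 139.8 and 84.7 CPM. On the deficient and excess diets it was 0.22 and 0.12 and did not pass the threshold. The value over all diets was not past the threshold with series A alone (0.33), with no series term (0.30) or with no filter on low counts (0.34). The same held in 9 of the 30 fits that left out 1 library each (0.29 to 0.42 over all 30). The control-diet value was not past it without sham control replicate 3 (0.55), 4 (0.58) or 5 (0.66) or Glenn control replicate 1 (0.57). Nor was it with only the groups compared (0.69).

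Of the synthases, Has3 (ENSRNOG00000059362), known for making shorter chains than its relatives, was close to absent after sham and present after Glenn surgery. Sham libraries held 29, 28, 2, 13 and 7 counts on the control diet, 6, 3, 5, 4 and 22 on the deficient diet and 12, 12, 23, 13 and 9 on the excess diet. Glenn libraries held 180, 149, 121, 119 and 105 counts on the control diet, 80, 125, 74, 119 and 72 on the deficient diet and 210, 100, 73, 108 and 159 on the excess diet. No Glenn library had as few as the highest sham library. Sham libraries averaged 0.315 ± 0.213 CPM and Glenn libraries 2.83 ± 0.851 CPM (n = 15 per operation, SD), and the log2 change of 3.16 (SE 0.27) was larger than that of any other of the 10 genes. By diet it was 3.00 (SE 0.46), 3.59 (SE 0.50) and 2.88 (SE 0.49) on the control, deficient and excess diets. With group means off, the genes most like Has3 were Gtf2a2 (0.77), Ankrd10 (0.70) and Lrrfip1 (0.69), and r with the 11 marker scores ran from -0.39 (macrophage) to 0.26 (endothelial).

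Has2 (ENSRNOG00000004854), the main synthase of the developing heart and vessels, was barely measured, with 0 to 13 counts per sham library and 1 to 31 per Glenn library. It had 0 counts in 3 sham libraries, and a count of this size cannot show a moderate difference. Its log2 change of 0.92 (SE 0.51, 95% interval -0.13 to 1.96) did not pass the threshold in edgeR or DESeq2, while limma voom called it at 1.20. Has1 (ENSRNOG00000010994) ranged from 2.28 to 13.4 CPM after sham and from 4.82 to 12.6 CPM after Glenn surgery, and the groups overlapped on every diet. Its log2 change was 0.11 (SE 0.17, 95% interval -0.23 to 0.45). Library to library, Has1 followed the mesothelial marker score (r = 0.66, n = 30, group means off), and that list had 0 of 6 tested genes past the threshold after surgery in edgeR.

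**Figure D4:**
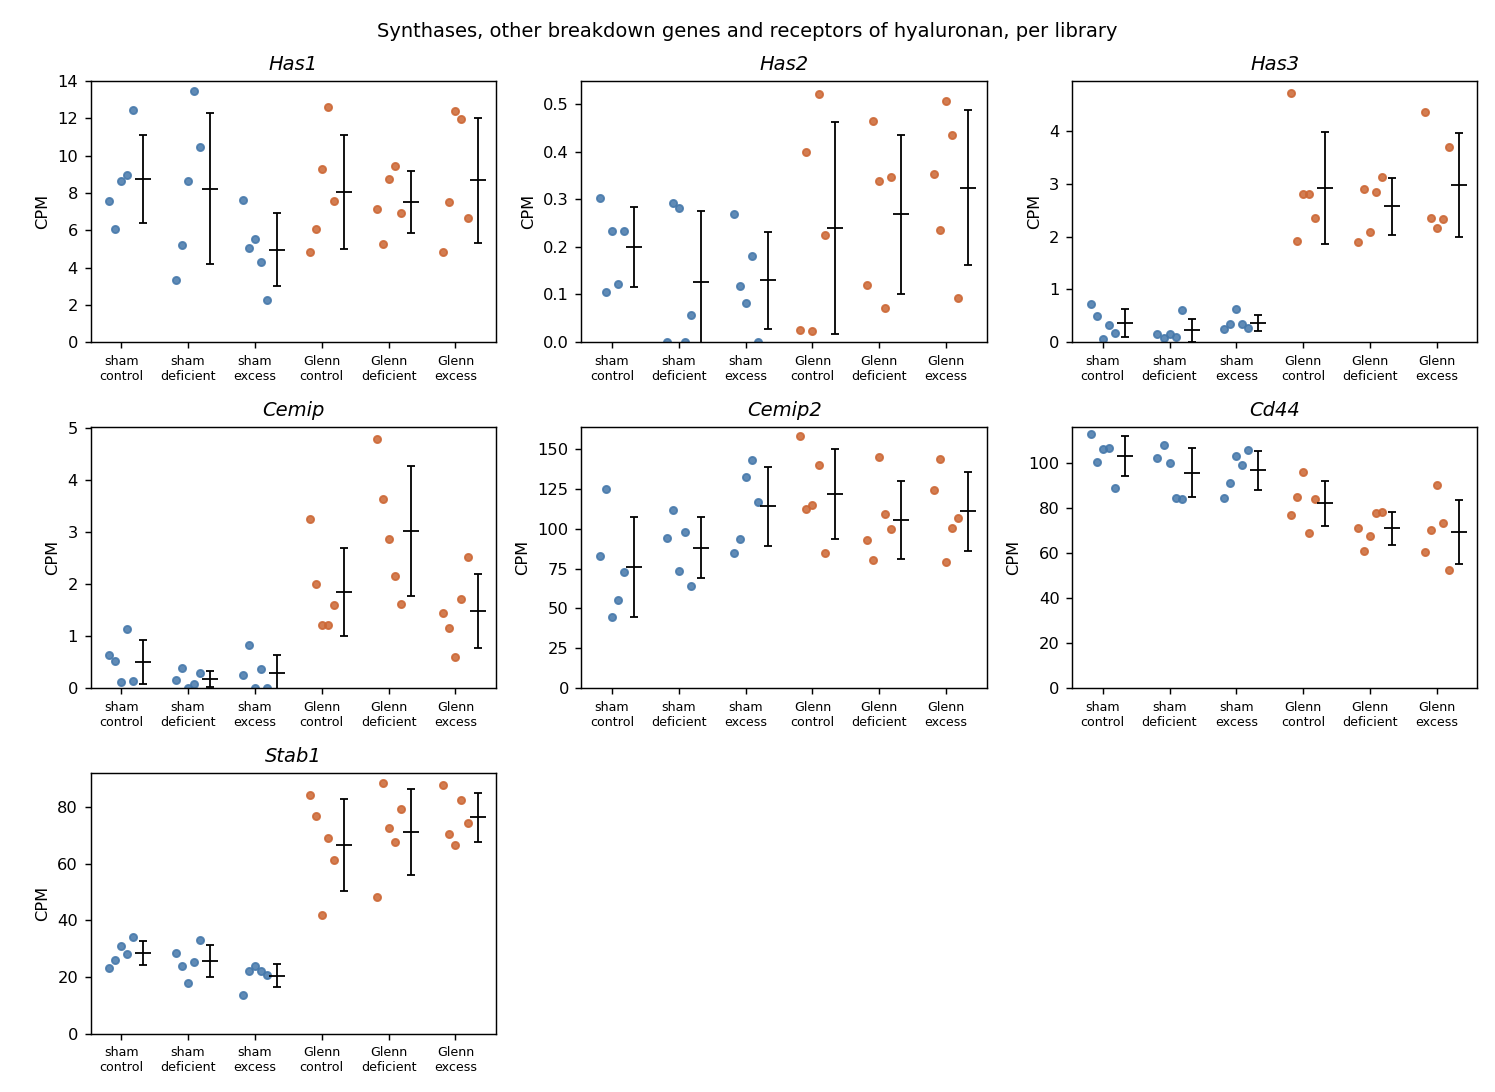
CPM of Has1, Has2, Has3, Cemip, Cemip2, Cd44 and Stab1 in each of the 30 libraries (points, in order of replicate number), with group mean and SD (bars, n = 5), by surgery and diet, each gene on its own axis. Has3 and Stab1 separate all Glenn (orange) from all sham libraries (blue), Cd44 is lower and Cemip higher with some overlap, and Has1, Has2 and Cemip2 overlap widely.

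Both receptors changed, in opposite directions. Cd44 (ENSRNOG00000006094), the principal cell-surface receptor of hyaluronan, held 113, 101, 106, 107 and 89.3 CPM in sham control, 103, 108, 100.4, 84.4 and 84.0 CPM in sham deficient and 84.7, 91.1, 104, 99.4 and 106 CPM in sham excess libraries. After Glenn surgery the values were 77.1, 85, 96.1, 68.9 and 84.3 CPM on the control, 71.4, 60.9, 67.5, 77.9 and 78.3 CPM on the deficient and 60.6, 70.1, 90.3, 73.4 and 52.4 CPM on the excess diet. The groups were apart on the deficient diet and overlapped by a few libraries on the others. The log2 change was -0.42 (SE 0.07) over all diets and -0.33, -0.42 and -0.51 on the control, deficient and excess diets. On the control diet it was not past the threshold without sham control replicate 1 (-0.29), 3 (-0.30) or 4 (-0.32), Glenn control replicate 1 (-0.31) or 4 (-0.25) or Glenn excess replicate 4 (-0.30). Cd44 followed the score of 9 alveolar epithelial markers from library to library (r = 0.79, n = 30, group means off) and ran against the endothelial score (-0.56). One of those epithelial markers, Lamp3, was among the 3 genes most like it (Prrg3 at 0.90, Usp8 at 0.87 and Lamp3 at 0.86). Of the alveolar epithelial markers, 6 were lower and 1 higher after Glenn surgery, and their summed level was 35367 to 60396 CPM in sham and 25780 to 57159 CPM in Glenn libraries; their part in the drop of Cd44 was not tested. In bulk RNA of sorted cells, fewer cells of a type and less RNA per cell cannot be told apart.

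Stab1 (ENSRNOG00000018434), which encodes stabilin-1, a scavenger receptor of sinusoidal and lymphatic endothelium and of macrophages, rose on every diet. Sham libraries held 23.3, 26.0, 31.1, 28.0 and 34.2 CPM on the control, 28.4, 24.0, 17.9, 25.3 and 33.1 CPM on the deficient and 13.7, 22.1, 23.8, 22.1 and 20.9 CPM on the excess diet. Glenn libraries held 84.2, 77.0, 42.0, 69.0 and 61.5 CPM on the control, 48.2, 88.5, 72.5, 67.8 and 79.3 CPM on the deficient and 87.9, 70.6, 66.8, 82.7 and 74.4 CPM on the excess diet. Every Glenn library was above every sham library. Sham libraries averaged 24.9 ± 5.53 CPM and Glenn libraries 71.5 ± 13.4 CPM (n = 15 per operation, SD). The log2 change was 1.53 (SE 0.11), or 1.23 (SE 0.18), 1.46 (SE 0.18) and 1.91 (SE 0.20) on the control, deficient and excess diets. With group means off it followed the lymphatic endothelial score (r = 0.53, n = 30) and ran against the alveolar epithelial score (-0.49). All 6 lymphatic endothelial markers were higher after Glenn surgery, at a summed 1090 to 2004 CPM in sham and 2468 to 5101 CPM in Glenn libraries. Its r with the macrophage and monocyte score was 0.04, and the macrophage genes Mrc1 and Csf1r were higher as well, as given further on. The part of these markers in the rise of Stab1 was not tested.

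**Figure D5:**
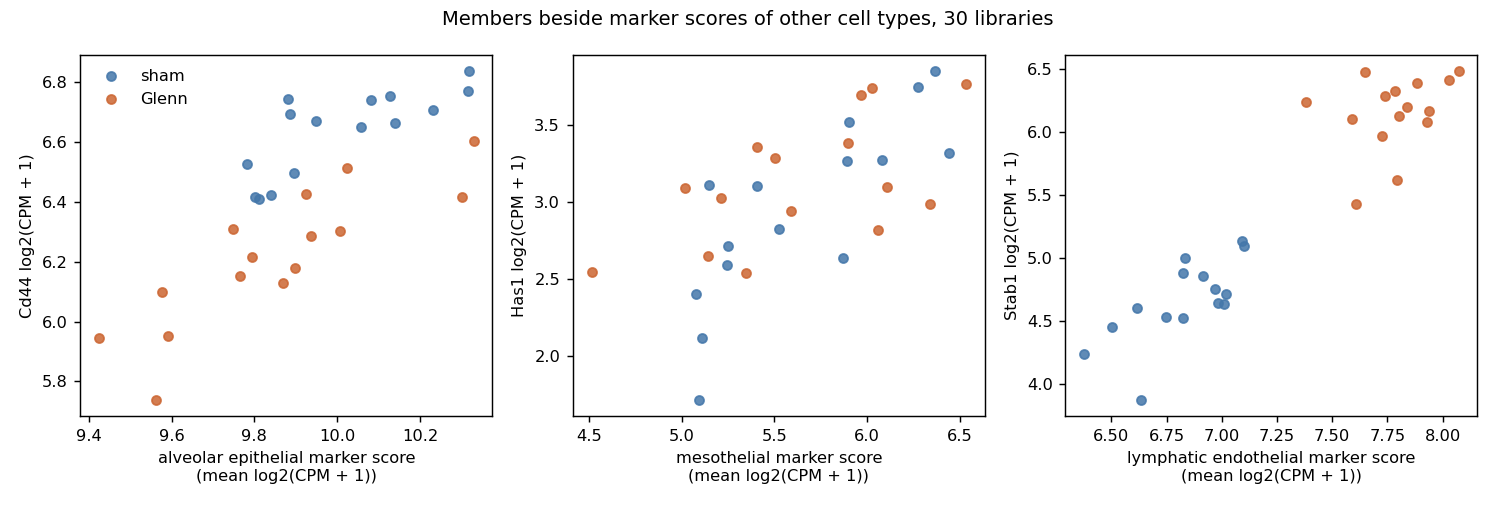
Log2(CPM + 1) of Cd44, Has1 and Stab1 (vertical axes) against the mean log2(CPM + 1) of markers of alveolar epithelium, mesothelium and lymphatic endothelium (horizontal axes), 1 point per library, sham blue and Glenn orange. Cd44 and Has1 climb with their marker scores within both operations, and for Stab1 sham and Glenn libraries form separate clouds.

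Diet was compared within each operation, in 6 tests per gene. Only 2 values of the 10 genes passed the threshold, both in excess against control after Glenn surgery, where 1.47% of all genes did. Both were higher on the excess diet, as were 0.89% of all genes, and 0.575% were lower. Hyal3 was higher on the excess diet by 0.45 on the log2 scale (SE 0.09, edgeR adjusted p 0.00987), at 96.9 ± 10.8 against 72.5 ± 6.02 CPM (n = 5 per group, SD). In this pair of groups 4 of the 5 excess libraries lay above all control libraries, and the other one, at 81.4 CPM, lay under the highest control library of 83.1 CPM. Hyal2 was higher by 0.56 (SE 0.13, edgeR adjusted p 0.0289), at 149 ± 29.1 against 107 ± 16.2 CPM (n = 5 per group, SD), with 4 of 5 excess libraries above all control libraries. Hyal1 was at 37.7 ± 9.29 against 31.1 ± 5.97 CPM and did not pass the threshold (log2 change 0.45, SE 0.14, edgeR adjusted p 0.099). The libraries of these diet comparisons also entered the drop of Hyal3 that was known when the genes were picked. The p-values of Hyal3 in them are therefore not free of that choice.

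The 2 calls depended on single libraries and on the fit. The Glenn excess group mixes 2 library series (replicates 1 and 2 in series A, replicates 3 to 5 in series B), and the control-diet groups hold series A only. With series A alone, 2 excess against 5 control libraries, both values were larger (0.54 for Hyal3, edgeR adjusted p 0.00599, and 0.72 for Hyal2, edgeR adjusted p 0.00757). No within-series value can be had for series B, which holds no control library. With the RT1-CE16 level as the term in place of the series, both genes still passed (Hyal3 0.43, edgeR adjusted p 0.0115; Hyal2 0.50, edgeR adjusted p 0.0439). Without Glenn excess replicate 1, neither gene passed (Hyal3 0.43, edgeR adjusted p 0.0981; Hyal2 0.47, edgeR adjusted p 0.258), nor without replicate 2 (Hyal3 0.38, edgeR adjusted p 0.0608; Hyal2 0.51, edgeR adjusted p 0.109). Hyal2 alone was also not past the threshold without Glenn control replicate 4 (0.46) or 5 (0.55), without Glenn excess replicate 4 (0.52), with no series term (0.48) or with the replicate block (0.52, edgeR adjusted p 0.161). A fit of only these 2 groups gave edgeR adjusted p-values of 0.081 for Hyal3 and 0.0822 for Hyal2. Naa80, which overlaps Hyal3, had the opposite sign in the same comparison (-0.71, SE 0.23, edgeR adjusted p 0.115). Its 2 lowest libraries, Glenn excess replicates 1 and 2 at 5.32 and 6.25 CPM, were the 2 highest Glenn libraries for Hyal2 and Hyal3. Hyal1, Naa80 and Hyal3 together summed to 160, 157, 119, 136 and 151 CPM on the excess and 124, 135, 109, 105 and 112 CPM on the control diet after Glenn surgery. In the sum 4 of 5 excess libraries again lay above all control libraries.

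The other diet comparisons gave no gene past the threshold. Deficient against control after sham gave 0 of 10 in edgeR, with 0 at an unadjusted p under 0.05, and 0 in DESeq2 and limma voom. Of all genes, 0.0% passed in edgeR and 15 genes passed in DESeq2. The shares of all genes that follow are edgeR's. Excess against control after sham gave 0 in all 3 tools (0.241% of all genes), with 3 genes at an unadjusted p under 0.05 in edgeR. These were Has1 (-0.81, SE 0.29, edgeR adjusted p 0.261), Stab1 (-0.48, SE 0.18, edgeR adjusted p 0.306) and Cemip2 (0.58, SE 0.22, edgeR adjusted p 0.31). In the sham excess group the summed mesothelial markers were also at the lower end, at 296 to 349.5 CPM against 414 to 729.8 CPM in sham control; their part in the Has1 value was not tested. Deficient against control after Glenn gave 0 in all 3 tools (0.00618% of all genes) and 1 gene at an unadjusted p under 0.05, Hyal3 (0.27, SE 0.08, edgeR adjusted p 0.28). Excess against deficient gave 0 in all 3 tools after sham (0.0124% of all genes; 0 at an unadjusted p under 0.05) and after Glenn (0.0%). After Glenn, 2 genes had an unadjusted p under 0.05 there, Hyal2 (0.39, SE 0.12, edgeR adjusted p 0.644) and Hyal3 (0.18, SE 0.08, edgeR adjusted p 0.95).

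Whether surgery changed the genes by a different amount on the 3 diets was tested as an interaction. It called 0 of the 10 genes in edgeR (0.00618% of all genes), with 0 at an unadjusted p under 0.05, and 0 in DESeq2 and limma voom with 1 each at an unadjusted p under 0.05. The smallest edgeR adjusted p was 0.877, for Stab1. In the single contrast of excess minus control, 0 genes passed in the 3 tools (0.0186% of all genes), and 4 had an unadjusted p under 0.05 in edgeR. They were Stab1 (0.68, 95% interval 0.14 to 1.23), Hyal1 (0.42, 0.04 to 0.80), Hyal2 (0.40, 0.03 to 0.76) and Hyal3 (0.29, 0.05 to 0.54). For Hyal3 this difference uses the same libraries as the drop known when the genes were picked. Deficient minus control also gave 0 in the 3 tools (0.0% of all genes), with Cemip alone at an unadjusted p under 0.05 (2.10, 95% interval 0.03 to 4.18), and excess minus deficient gave 0 in the 3 tools (0.0%; 0 at an unadjusted p under 0.05). For Has3 the intervals of these differences run from -0.74 to 1.92 and from -1.45 to 1.21 against the control diet, wide enough to hold a severalfold difference.

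Other genes of the pathway were described from lists set with the members, in Glenn against sham averaged over diets. Of each list, the genes with the largest rise and fall past the threshold follow a rule, and the others were chosen after their values were seen. The lists themselves were chosen with earlier results of these data known. Adjusted p-values printed for their genes in Glenn against sham therefore describe the choice and support nothing. No list had a gene past the threshold in the surgery by diet interaction, and the smallest edgeR adjusted p in any of them was 0.706. Counts in these lists are to be read against all genes, of which 48.2% passed (23.4% higher, 24.7% lower), with a median of -0.01. Among the enzymes that take apart hyaluronan fragments, Hexa, which encodes a chain of lysosomal beta-hexosaminidase, was higher (0.45, SE 0.05, edgeR adjusted p 1.61e-09), as was Gusb, beta-glucuronidase, at 0.18. Hexa stood at 101 ± 9.26 CPM in sham and 138 ± 13.3 CPM in Glenn libraries (n = 15 per operation, SD). Hyal4, Hyal5, Hyal6 and Spam1, of the same list, had too few counts to test.

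Of 5 tested receptors other than Cd44 and Stab1, 2 were higher, 0 lower and 3 not past the threshold, and the median log2 change was 0.19. Layn, the membrane receptor layilin, rose by 0.74 on the log2 scale (SE 0.12, edgeR adjusted p 1.17e-05), with 5.07 ± 1.12 CPM in sham and 8.47 ± 1.74 CPM in Glenn libraries (n = 15 per operation, SD), and all Glenn libraries were above all sham libraries. Lyve1, the receptor of lymphatic endothelium, which is also in the lymphatic marker list, was higher by 0.36. Of 9 tested proteins that bind or crosslink hyaluronan in the matrix, 5 were higher (23.4% of all genes), 1 lower (24.7%) and 3 not past the threshold, with a median of 0.95. Itih5, a heavy chain of the inter-alpha-trypsin inhibitor family, rose by 1.80 (SE 0.26, edgeR adjusted p 1.01e-06), with 1.18 ± 0.638 CPM in sham and 4 ± 1.49 CPM in Glenn libraries (n = 15 per operation, SD). Tnfaip6 (1.79), which moves such heavy chains onto hyaluronan, Ptx3 (1.34), the proteoglycan Vcan (1.25) and the link protein Hapln3 (0.43) were the others that were higher. Bcan, brevican, was lower (-0.57, SE 0.23, edgeR adjusted p 0.0444) and close to the threshold. It was not past it with series A alone (-0.28), with no filter on low counts (-0.57, edgeR adjusted p 0.053) or in 17 of the 30 fits that left out 1 library each (-0.63 to -0.47 over all 30). Fibroblast markers were higher in 7 of 8 and mural markers in 8 of 8, with summed mural markers at 161 to 326 CPM in sham and 461 to 1660 CPM in Glenn libraries; their part in these rises was not tested.

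Of 10 genes for the sugar nucleotides that feed synthesis, 3 were higher (23.4% of all genes), 2 lower (24.7%) and 5 not past the threshold, with a median of 0.09. Gfpt1, which takes the first step of the hexosamine pathway, fell by 0.21 on the log2 scale (SE 0.07, edgeR adjusted p 0.00823), and Gnpda2, which runs that step in reverse, rose by 0.52 (SE 0.05, edgeR adjusted p 4.2e-09). Ugp2 (0.35) and Gnpda1 (0.26) were also higher, and Pgm3 (-0.17) lower. Of 8 partners of Cd44, 4 were higher, 2 lower and 2 not past the threshold, with a median of 0.12. Spp1, the ligand osteopontin, rose by 4.08 (SE 0.39, edgeR adjusted p 2.12e-09), at 0.672 ± 0.433 CPM in sham and 9.80 ± 7.44 CPM in Glenn libraries (n = 15 per operation, SD), with all Glenn libraries above all sham libraries. Adam17, a sheddase of Cd44, fell by 0.44 (SE 0.04, edgeR adjusted p 2.71e-09), with 184 ± 17.0 CPM in sham and 135 ± 11.4 CPM in Glenn libraries (n = 15 per operation, SD). Mmp14 (1.05), Adam10 (0.42) and the cytoskeletal linker Msn (0.26) were higher, and the linker Rdx (-0.36) lower.

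Library totals ran from 22 to 77.6 M counts (median 40 M). Endothelial markers were present in all libraries, at a summed 6988 to 9024 CPM after sham and 5363 to 7720 CPM after Glenn surgery (3 of 8 higher, 4 lower). Alveolar epithelial markers were abundant as well, as given above, so the sorted cells were not endothelial alone. Macrophage and monocyte markers (2 higher and 2 lower of 6) summed to 13112 to 24538 CPM in sham and 8139 to 18941 CPM in Glenn libraries, most of it Lyz2, which alveolar epithelium also expresses, and Marco was at 0 in 15 or more libraries. Of that list Mrc1 (0.92) and Csf1r (0.71) were higher and Lyz2 (-0.56) and Cd68 (-0.76) lower. The neutrophil (0 and 1 of 4), lymphocyte (0 and 0 of 6) and erythroid lists (2 and 0 of 2) summed to at most 10.6, 26.4 and 5.59 CPM, with Mpo and Cd3d at 0 in 15 or more libraries. All 5 platelet markers were lower. RT1-CE16, a major histocompatibility gene, was high in 13 libraries and low in 17. All 5 sham excess libraries were low, and each other group held 2 or 3 high libraries. With its level in place of the series, the averaged changes of Hyal1, Hyal2 and Hyal3 were -1.08, -1.43 and -1.72.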

How the data were processed

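The authors deposited 1 table of estimated counts per gene for all 30 libraries, with 30562 rows, in which 13.6% of values are not whole numbers. A PureLink mini kit served for RNA and a SMART-Seq Ultra Low v4 kit for the libraries, per the labels' protocols. The submitters' processing notes name FastQC, Trim Galore, Picard, STAR and Salmon and the builds mRatBN7.2 and rn7, while versions, the annotation release and the strand setting are not given in the sources used here. All 30 sample columns were used and 0 were left out.

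Estimated counts were rounded, and edgeR 4.0.16 kept 16171 genes (filterByExpr, about 10 counts in at least 5 libraries, the group size, and 15 in total). They were scaled by TMM (factors 0.94 to 1.06) and fitted once with glmQLFit (robust) over the means of the 6 groups plus the library series, which was read from the number range of the library names in the labels (22 in series A, 8 in B). P-values from glmQLFTest were adjusted by Benjamini-Hochberg over all genes tested. SE was taken as the log2 change over root F, and intervals are at 95%. CPM are TMM-scaled, and scores use log2(CPM + 1). Within groups, the 60 pairs of libraries differed beyond sampling noise (chi-square per degree of freedom 20.5 to 122.3). The fit was also run on simulated counts drawn from the means and dispersions of the real fit, and its outcome is not reported here.

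The members and all gene lists were chosen with earlier results of these data known. All 10 members are described. Of each other list, the genes with the largest rise and largest fall past the threshold (mean of at least 1 CPM) are named, all neighbours of the Hyal genes are named, and the 3 genes most correlated with a member are given for 8 members. A few genes these rules pick are not reported here. Alternatives were no series term, series A alone, the level of RT1-CE16 as a term (high above 100 CPM) in place of the series, sex as a further term (male above 10 CPM of Ddx3y), DESeq2 size factors, DESeq2 1.42.0, limma 3.58.1 voom with quality weights, no filter, only the groups compared, a replicate block, the newer edgeR dispersion method and each library left out. Those for genes of the other lists were chosen after seeing the data. Gene order, overlaps and promoter sequences came from RefSeq's GRCr8 tables, which is not the build of the counts. R 4.3.3 was used.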

Additional observations from a re-analysis of the deposited data

Results flagged for a closer look

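In each gene and group of 5 libraries, the highest and the lowest library were compared with the nearest of the other 4. In 3 of 60 sets the gap took more than 0.71 of the whole range, and chance alone gives about 3. Glenn control replicate 2 had the highest Hyal3 of its group, at 83.1 CPM against 69.1 to 70.9 CPM in the others (0.87 of the range), and is also the deepest library, with 77.6 M counts. Sham deficient replicate 5 had the highest Has3 of its group, at 0.617 CPM against 0.0875 to 0.157 CPM (0.869 of the range), which is 22 counts against 3 to 6. Sham excess replicate 3 had the highest Has3 of its group, at 0.627 CPM against 0.248 to 0.353 CPM (0.722 of the range), 23 counts against 9 to 13. The Has3 levels of both libraries remained below that of every Glenn library.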

How the results depend on the processing

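Counts of members past the threshold stayed within 1.5 times the reported count in 149 of 152 alternatives, and in 413 of 420 fits with 1 library left out. The exceptions among the former were all in excess against control after Glenn surgery (2 genes), which gave 1 with no series term, 1 with the replicate block and 0 with only the groups compared. With 1 library left out, that count ranged from 0 to 3, and Glenn against sham on the control diet (8 genes) from 5 to 8, the 5 arising without sham control replicate 3 or Glenn control replicate 1. Of single log2 changes of members, 501 of 518 kept direction and side of the threshold, 15 were no longer past it, 1 newly was and 1 turned sign. The last was Cemip2 on the excess diet, which went from 0.12 to -0.040 with no series term; neither is past the threshold. Among other genes, Ifrd2 turned from -0.05 to 0.038 with series A alone, also not past it. The cause of these changes was not tested. Fits that leave libraries out also rest on fewer of them.

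Whether replicate numbers pair the libraries is not settled. Over 15 pairs of same-numbered libraries the correlation of deviations ran from -0.26 to 0.37, with 10 over 0.1, and 6 were highest with their own number. In every group replicate 1 was above the Ddx3y cutoff for males and replicate 2 below it, and both had low RT1-CE16. The numbers thus partly tracked these traits, and the main fit held no replicate term. The replicate block took Hyal2 in excess against control after Glenn out of the calls (0.52, edgeR adjusted p 0.161), along with Bcan (-0.51) and Gnai2 (0.11) in Glenn against sham, and changed no other call of a named gene.

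Over all genes, counts past the threshold moved by more than 1.5 times in several comparisons. Alternatives gave 10 to 531 genes and left-out libraries 2 to 557 for excess against control after Glenn (237 reported), 0 to 210 and 0 to 79 for the same after sham (39), and 1 to 63 and 1 to 60 for deficient against control after Glenn (1). For deficient against control after sham (0) they gave 0 to 19 and 0 to 2, for excess against deficient after sham (2) 0 to 12 and 0 to 3, and after Glenn (0) 0 to 6 and 0. The interaction (1) gave 0 to 35 and 0 to 14, and the excess minus control effect (3) 0 to 55 and 1 to 34. The excess minus deficient effect (0) gave 0 to 1 and 0. Glenn against sham fell to 2553 on the deficient diet (4423) and 1960 on the excess diet (3549). Depth limits Has2 (0 to 31 counts per library) and, after sham, Cemip and Has3 (0 to 47 and 2 to 29 counts).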
